A study of Rattus norvegicus with 9 samples.

Results

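The genes described here belong to FGF, PDGF and ErbB signaling and its feedback, and are those whose symbol on the array falls in the Fgf, Fgfr, Pdgf, Egfr and Erbb, Nrg, Spry, Spred, Dusp or Etv families, found by name. No measured value entered the rule, but earlier results of these data were known when the families were picked. They were 70 of 14217 genes with a probe set of a single symbol, and each was read by its probe set of highest mean signal over 9 arrays. Of the 70 members, 37 were tested, and the other 33 reached the detection threshold on fewer than 3 arrays. Pdgfb, Nrg3, Spred1 and Spred2 were not analysed here. The members Pdgfrl, which encodes a PDGF receptor-like protein without a kinase, and Fgfr1op2, named for a fusion partner of FGFR1, match the families by symbol only, and Fgfr1op2 was not called in any comparison.

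Cells read their surroundings through receptor tyrosine kinases, and the FGF, PDGF and ErbB families are 3 of the best known groups of these receptors. A ligand joins receptors in pairs, and the signal passes through the Ras proteins and the Raf, MEK and ERK kinases to ETS transcription factors such as Etv4 and Etv5. The same ERK activity switches on its own brakes, the Sprouty and Spred proteins and the Dusp phosphatases that take phosphate off MAP kinases. In the developing eye, FGF signaling helps to set aside the neural retina from the pigment epithelium, and EGF receptor signaling acts on late progenitors and Muller glia.

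Total RNA of 9 samples was measured on Affymetrix rat expression arrays, with 3 biological replicates of each kind of cell. P-RPC were cells dissociated from retinal tissue of newborn SD rats on postnatal day 1, taken for RNA without culture and, so far as the methods say, without sorting. rESC-RPC1 and rESC-RPC2 were both differentiated from 1 rat ESC line, DA8-16, of DA rats, as aggregates with Matrigel and the Wnt inhibitor IWR-1e, then with FBS from day 8, and both were harvested on day 16. rESC-RPC1 were plated for adherent culture on day 10 and moved to N2 medium with FBS on day 14, while rESC-RPC2 stayed in suspension until day 14, when they were plated. Against P-RPC, the strain, the culture and the cell type change together and cannot be told apart, and between the rESC-RPCs the time of plating and the medium change together. No FGF, EGF or PDGF is named among the additions to the medium of either kind of rESC-RPCs. The methods do not give the growth factor content of the FBS or the Matrigel, so exposure to such ligands is not known. The rat ESCs themselves were kept with a MEK inhibitor, PD0325901, which the differentiation media do not list.

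Values are MAS 5.0 signals on a linear scale, given in the order of replicates 1, 2 and 3. The detection threshold was put at 123, the median over every value of the 9 arrays. A gene was called higher or lower at an adjusted p under 0.05 from limma over all 9953 genes tested and a fold change of at least 2. In bulk RNA, fewer cells of a type and less RNA per cell cannot be told apart. P-RPC held retinal progenitor genes at a summed signal of 61293 to 64066 over 10 genes, of which 9 were detected on all 3 arrays, against 18817 to 23672 in rESC-RPC1 with 7 detected and 15019.9 to 15956 in rESC-RPC2 with 6 detected. Of these, Pax6, an eye field factor, was at 13484 to 14227 in P-RPC, 67.4 to 204 in rESC-RPC1 and 58.5 to 106 in rESC-RPC2, above the threshold on 1 of the 6 rESC-RPC arrays, while Sox2 was at 4901 to 4965, 7784 to 10340.0 and 6273 to 6631. In 15 lens genes, P-RPC replicate 1 differed from all other arrays, with a summed signal of 145551 where the lowest P-RPC array had 1933, and in rESC-RPC1 the summed signal of 11 fibroblast and mesenchyme genes, 7 of them detected on all arrays, was 18459 to 38136, highest in replicate 3, against 3058 to 3443 in P-RPC and 4415 to 6490.1 in rESC-RPC2.

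To show the genes on which the results turn, the start regions of the FGF receptors and the Sprouty gene that were higher in both kinds of rESC-RPCs, and of the ligand, the ErbB receptor and the ETS factor that were lower in both, are printed below as the 250 bases before the RefSeq start of each gene (GRCr8). Capitals mark matches, on either strand, to an ETS motif (CCGGAAG), an AP-1 motif (TGANTCA), a cAMP response element (TGACGTCA) or a GC box (GGGCGG), none of which contains another.
Fgfr2 (chr1:194280915-194281164, minus strand): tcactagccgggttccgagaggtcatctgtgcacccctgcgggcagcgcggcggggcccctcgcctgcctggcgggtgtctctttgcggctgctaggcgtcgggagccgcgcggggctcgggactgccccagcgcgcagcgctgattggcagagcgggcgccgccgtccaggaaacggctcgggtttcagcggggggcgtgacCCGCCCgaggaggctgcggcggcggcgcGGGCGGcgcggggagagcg
Fgfr3 (chr14:81227210-81227459, minus strand): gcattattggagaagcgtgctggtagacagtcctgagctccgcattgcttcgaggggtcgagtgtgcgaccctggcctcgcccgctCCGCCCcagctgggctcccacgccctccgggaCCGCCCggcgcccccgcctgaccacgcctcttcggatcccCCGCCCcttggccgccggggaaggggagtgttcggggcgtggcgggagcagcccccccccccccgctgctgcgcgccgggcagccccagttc
Spry1 (chr2:122485097-122485346, plus strand): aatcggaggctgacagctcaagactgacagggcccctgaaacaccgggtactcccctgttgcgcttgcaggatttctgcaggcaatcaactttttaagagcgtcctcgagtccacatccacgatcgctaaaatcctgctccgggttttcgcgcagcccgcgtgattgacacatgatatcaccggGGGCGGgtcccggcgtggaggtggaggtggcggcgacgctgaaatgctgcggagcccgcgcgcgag
Fgf9 (chr15:36327108-36327357, plus strand): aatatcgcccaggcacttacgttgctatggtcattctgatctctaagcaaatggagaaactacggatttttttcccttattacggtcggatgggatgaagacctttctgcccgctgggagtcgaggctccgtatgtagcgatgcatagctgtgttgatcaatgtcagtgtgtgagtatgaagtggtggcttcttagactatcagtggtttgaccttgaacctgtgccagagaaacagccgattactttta
Egfr (chr14:95378376-95378625, plus strand): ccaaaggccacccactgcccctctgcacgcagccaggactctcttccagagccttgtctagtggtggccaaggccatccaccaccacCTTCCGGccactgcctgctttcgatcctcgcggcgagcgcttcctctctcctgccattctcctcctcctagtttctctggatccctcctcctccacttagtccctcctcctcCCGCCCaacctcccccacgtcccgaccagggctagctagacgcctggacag
Etv5 (chr11:92113013-92113262, plus strand): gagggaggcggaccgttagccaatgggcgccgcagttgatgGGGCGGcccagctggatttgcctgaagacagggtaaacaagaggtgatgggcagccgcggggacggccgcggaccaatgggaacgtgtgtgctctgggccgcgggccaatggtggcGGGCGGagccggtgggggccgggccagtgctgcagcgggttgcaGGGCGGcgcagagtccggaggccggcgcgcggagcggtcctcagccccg

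Fgfr2, Fgfr3 and Etv5 lie behind GC-rich starts with 2, 3 and 3 GC boxes, and Fgf9 has none of the 4 motifs and a GC content of 46.0%, against 76.8% for Fgfr2. The ETS motif was found only before Egfr among these 6. Across the 56 members with a RefSeq start region, 36 (64.3%) held a GC box and 3 (5.36%) the ETS motif, against 32.4% and 7.74% of all 27457 start regions of the same length. The AP-1 motif was found in 3 members (5.36%, against 6.36% of all) and the cAMP response element in 2 (3.57%, against 1.70%), Dusp1 and Dusp11. These matches are letters in a window and were not measured as binding sites.

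Over the 37 tested members, 7 were called higher and 4 lower in rESC-RPC1 relative to P-RPC (29.7% of the tested members, where 21.5% of all genes tested were called, 12.0% higher and 9.56% lower). In rESC-RPC2 against P-RPC 13 were higher and 5 lower (48.6%, against 23.8%, of which 10.8% higher and 13.0% lower), and between the rESC-RPCs, always taken as rESC-RPC2 against rESC-RPC1, 7 were higher and 3 lower (27.0%, against 14.3%, of which 5.08% higher and 9.24% lower). The median log2 fold change of the tested members was 0.21, 0.63 and 0.17 in these comparisons, beside -0.01, -0.02 and -0.03 over all genes tested. The arrays of the groups did not overlap for 25, 32 and 18 members, which is 67.6%, 86.5% and 48.6% of them, against 66.3%, 73.0% and 53.9% of all genes. All 3 comparisons draw on the same 9 arrays, and those with P-RPC share its 3 arrays. With all 9 arrays, 2144, 2368 and 1426 of all genes were called in the 3 comparisons. Without P-RPC replicate 1, the array high in lens genes, 10, 18 and 10 members and 1909, 2118 and 1387 of all genes were called. Without rESC-RPC1 replicate 3, the array highest in mesenchyme genes, 12, 18 and 13 members and 1959, 2343 and 1409 of all genes were called. In total 22 members were called in at least 1 comparison and 15 in none.

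**Figure D1:**
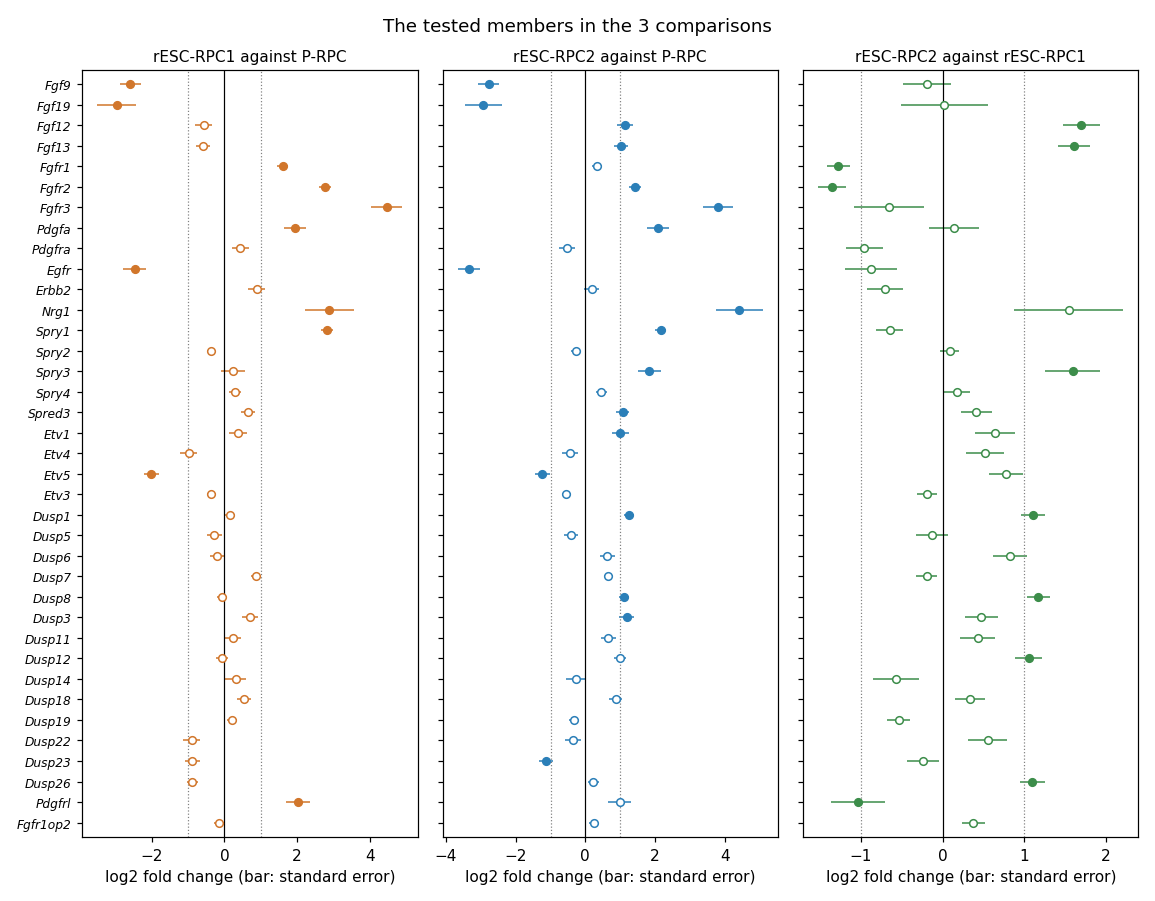
The log2 fold change (horizontal axes, bars giving standard errors) of the 37 tested members in each of the 3 comparisons, with filled points for called members, open points for the others and dotted lines at a fold of 2. Fgfr3, Fgfr2, Spry1, Nrg1 and Pdgfa lie to the right and Fgf9, Egfr, Etv5 and Fgf19 to the left in both comparisons with P-RPC, whereas Fgf12, Fgf13, Spry3, Dusp1 and Dusp8 lie to the right in both comparisons of rESC-RPC2.

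Fgfr2 and Fgfr3 were higher in both kinds of rESC-RPCs and Fgfr1 in rESC-RPC1, while the ligand Fgf9 was lower in both. Fgf9 was the only one tested of the 15 secreted paracrine FGF ligands among the members. Fgf9, a ligand made in the developing retina, had signals of 2342, 2125 and 2266 (P-RPC), 368, 645 and 222 (rESC-RPC1) and 299.6, 365 and 321 (rESC-RPC2). All 6 rESC-RPC arrays lay under the 3 P-RPC arrays, giving a log2 fold change of -2.58 ± 0.29 (SE, adjusted p = 3.4e-05) in rESC-RPC1 and -2.78 ± 0.29 (SE, adjusted p = 1.81e-05) in rESC-RPC2. Its other probe set gave -2.48 and -2.94. Between the rESC-RPCs the arrays overlapped (adjusted p = 0.614).

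The other 14 paracrine ligands were under the threshold on at least 7 of the 9 arrays. Over all 9 arrays their signals ran from 1 to 249, and only Fgf1 and Fgf18 reached the threshold on any array. Fgf18, a ligand of bone and midbrain development, had 51.4, 47.4 and 47.6 (P-RPC), 129.9, 163 and 80.6 (rESC-RPC1) and 1.25, 17.3 and 26.8 (rESC-RPC2), so that 2 rESC-RPC1 arrays were above the threshold. Fgf1, acidic FGF, was above the threshold on rESC-RPC1 replicate 3 alone, at 249. Fgf2, basic FGF, was at 4.53 to 41.4 in P-RPC, 70.7 to 102 in rESC-RPC1 and 37 to 62.8 in rESC-RPC2, and Fgf8, a patterning ligand of the optic cup and midbrain, at no more than 43.7 on any array. A signal under the threshold here is a limit of the probe set and does not show that the gene was silent.

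Fgf19, the rat gene that RefSeq also lists as Fgf15 and a ligand of the endocrine group, is known from mouse for expression in retinal progenitors. Its signals were 165, 146 and 176 (P-RPC), 32.9, 9.71 and 28.1 (rESC-RPC1) and 19.2, 15.7 and 31.1 (rESC-RPC2). Only the P-RPC arrays reached the threshold, so Fgf19 was lower in rESC-RPC1 and rESC-RPC2 by at least 1.32-fold (adjusted p = 0.00075 in rESC-RPC1 and adjusted p = 0.000722 in rESC-RPC2, on values not raised to the threshold). It passed the filter through P-RPC alone. With values raised to the threshold its log2 fold change of -0.40 in each was no longer called. Fgf21 and Fgf23, the other endocrine ligands, did not exceed 61 on any array.

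Fgfr1, Fgfr2 and Fgfr3 were each higher in rESC-RPC1 relative to P-RPC, and Fgfr2 and Fgfr3 also in rESC-RPC2. Fgfr3, a receptor known from glial precursors and cartilage, had signals of 315, 80.5 and 109 (P-RPC), 3299.9, 2114 and 4258 (rESC-RPC1) and 2157, 2019 and 1746 (rESC-RPC2). It had the largest log2 fold change of the 37 tested members in rESC-RPC1, 4.46 ± 0.42 (SE, adjusted p = 9.75e-06), and one of 3.81 ± 0.42 (SE, adjusted p = 2.62e-05) in rESC-RPC2. The size of both rests in part on P-RPC signals under the threshold. In P-RPC only replicate 1, the array high in lens genes, was above the threshold, and without it Fgfr3 was still called higher in rESC-RPC1 (adjusted p = 1.26e-06) and in rESC-RPC2 (adjusted p = 2.69e-06), with no fold given since the other P-RPC arrays lay under the threshold. The rESC-RPC1 and rESC-RPC2 arrays overlapped.

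Fgfr2, a receptor of neural and epithelial progenitors, was at 317, 314 and 330.4 (P-RPC), 2455, 2643 and 1607 (rESC-RPC1) and 757, 952 and 867 (rESC-RPC2). The 3 groups did not overlap and stood in the order P-RPC, rESC-RPC2, rESC-RPC1. Its mean was 320.4 ± 8.7 (SD, n = 3), 2235 ± 552 and 859 ± 97.3 for P-RPC, then rESC-RPC1, then rESC-RPC2. The log2 fold changes were 2.77 ± 0.17 (SE, adjusted p = 4.76e-07), 1.42 and, for rESC-RPC2 against rESC-RPC1, -1.35 ± 0.17 (SE, adjusted p = 0.00012). The 4 other probe sets of Fgfr2 had group means of at most 66.3 and were not tested.

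Fgfr1, a receptor widely expressed in neural progenitors, had 555, 483 and 622 (P-RPC), 1891, 1787 and 1373 (rESC-RPC1) and 757, 688 and 627 (rESC-RPC2). Its rESC-RPC1 arrays lay above all others, whereas rESC-RPC2 differed from P-RPC by 0.32 ± 0.14 (SE, adjusted p = 0.0693) on the log2 scale, which was not called. The second probe set, under the threshold on all P-RPC arrays, was also called higher in rESC-RPC1 (adjusted p = 3.01e-05) but not in rESC-RPC2 (adjusted p = 0.023), against P-RPC in each case. Fgfr4 was at 82.7, 34.4 and 11.9 in P-RPC, at most 11.9 in rESC-RPC1 and at most 34.9 in rESC-RPC2, so no array reached the threshold. Beside these receptors, 12 markers of astrocytes and Muller glia had summed signals of 29905 to 35186 in P-RPC, 49324 to 73361 in rESC-RPC1 and 39758 to 41974 in rESC-RPC2, of which 7, 9 and 6 were detected on all 3 arrays. Of the 10 tested, 5 were higher and 1 lower in rESC-RPC1 against P-RPC (median log2 fold change 1.07), 3 higher and 4 lower in rESC-RPC2 against P-RPC (median -0.67), and 7 lower between the rESC-RPCs (median -1.94). In rESC-RPC2 against P-RPC, the 4 called lower were Rlbp1, Glul, Gja1 and Apoe. Vim, a filament gene of glia and many progenitors, was 1 of the 3 called higher, at 21767 to 26935 against 8703 to 11173. Their part in the receptor levels was not tested.

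Fgf12 and Fgf13 were higher in rESC-RPC2 than in either other group. They encode FGF homologous factors, which stay inside the cell, bind voltage-gated sodium channels of neurons and are not ligands in the usual sense. Fgf13 had signals of 2568, 2659 and 2764 (P-RPC), 1599.7, 2635 and 1319 (rESC-RPC1) and 5140.0, 5679 and 5424 (rESC-RPC2). The rESC-RPC2 arrays were above all 6 others, with log2 fold changes of 1.02 ± 0.20 (SE, adjusted p = 0.00108) against P-RPC and 1.61 ± 0.20 (SE, adjusted p = 9.93e-05) against rESC-RPC1. The first of these lies close to the fold of 2 and was not called under quantile normalization (0.983), without P-RPC replicate 1 (0.997) or without rESC-RPC2 replicate 2 (0.988).

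Fgf12 was at 369, 433 and 392 (P-RPC), 239.7, 399 and 199.6 (rESC-RPC1) and 723, 931 and 973 (rESC-RPC2). Its log2 fold changes in rESC-RPC2 were 1.13 against P-RPC (adjusted p = 0.0014) and 1.70 against rESC-RPC1 (adjusted p = 0.000174). A second probe set gave 1.37 against rESC-RPC1, but 0.69 against P-RPC, which was not called (adjusted p = 0.0226). Fgf11 stayed under the threshold, and Fgf14 passed it on rESC-RPC2 replicate 2 alone, at 125. In rESC-RPC1, replicate 2 had the highest signal of both Fgf12 and Fgf13. Of 12 neuron markers, 8 were called higher and none lower in rESC-RPC2 against rESC-RPC1, where 5.08% of all genes tested were called higher, and their summed signals were 54451 to 60486 in rESC-RPC2, 21860.3 to 31322 in rESC-RPC1 and 27384 to 32820.4 in P-RPC. Of the 12, 11 were detected on all arrays of P-RPC and of rESC-RPC1 and 12 on those of rESC-RPC2. Their part in the levels of Fgf12 and Fgf13 was not tested.

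Among the PDGF genes, the ligand Pdgfa was higher in both kinds of rESC-RPCs and the receptor Pdgfra was not called in any comparison. Pdgfa, known for driving oligodendrocyte precursors and for its expression in neurons and astrocytes, was at 177, 226 and 229 (P-RPC), 663, 561 and 1406 (rESC-RPC1) and 1045, 675 and 996 (rESC-RPC2). All 6 rESC-RPC arrays were above P-RPC, with log2 fold changes of 1.94 ± 0.30 (SE, adjusted p = 0.000311) and 2.09 ± 0.30 (SE, adjusted p = 0.000174). rESC-RPC1 replicate 3, the rESC-RPC1 array with the highest summed mesenchyme and smooth muscle markers, was the highest of all. Pdgfc reached the threshold on 1 rESC-RPC1 array, at 141, and Pdgfd on none.

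Pdgfra, the receptor of PDGF-A on oligodendrocyte precursors and mesenchyme, had 252, 254 and 189 (P-RPC), 273, 271 and 409 (rESC-RPC1) and 136, 211 and 144 (rESC-RPC2). Its rESC-RPC2 arrays lay under those of rESC-RPC1, giving a log2 fold change of -0.96 ± 0.23 (SE, adjusted p = 0.00566), just short of the fold of 2. Pdgfrb, the receptor of pericytes, reached the threshold on 2 rESC-RPC1 arrays, at 138 and 167, and was not tested. Of the pericyte markers, Rgs5 was at 125 to 182 in P-RPC, above the threshold on all 3 arrays, and under it in the rESC-RPCs, where it was called lower (adjusted p = 0.000151 and adjusted p = 0.00161). Kcnj8, Abcc9 and Cspg4 were under the threshold on all 9 arrays, whereas the smooth muscle gene Tagln was at 1528 to 7731 in rESC-RPC1 and 4897 to 9319.6 in rESC-RPC2. Of the oligodendrocyte precursor markers, Olig1 was at 6.61 to 34.4 in P-RPC, 264 to 872 in rESC-RPC1 and 366 to 589.8 in rESC-RPC2. Nkx2-2 was at 2.4 to 6.55, 322 to 373 and 337 to 464 in the same order, while Olig2 and Sox10 were under the threshold on all 9 arrays. Over the whole lists, 3, 6 and 7 of 12 oligodendrocyte precursor markers were detected on all P-RPC arrays, all rESC-RPC1 arrays and all rESC-RPC2 arrays, with summed signals of 3132 to 3532, 5209 to 8016 and 4821 to 5277, and 3, 4 and 4 of 12 pericyte and smooth muscle markers, with 1153 to 1315, 2755 to 12537 and 7656 to 14394. Cspg4 is on both lists. Against P-RPC, 5 of the 7 tested oligodendrocyte precursor markers were higher and none lower in rESC-RPC1, and 4 were higher and 1 lower in rESC-RPC2. Of the 5 tested pericyte and smooth muscle markers, 3 were higher and 1 lower in rESC-RPC1, and 4 higher and 1 lower in rESC-RPC2. Their part in the PDGF values was not tested.

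Pdgfrl was at 66.7, 53.1 and 37.6 (P-RPC), 165, 170.0 and 319 (rESC-RPC1) and 104, 78.1 and 127 (rESC-RPC2). Against P-RPC it was higher in rESC-RPC1 by at least 1.69-fold (adjusted p = 0.00042), although with values raised to the threshold its log2 fold change of 0.76 was not called. Its log2 fold change of -1.04 in rESC-RPC2 against rESC-RPC1 (adjusted p = 0.0249) lost the call with values raised to the threshold (-0.74), which 2 of the 3 rESC-RPC2 arrays did not reach, under quantile normalization (-0.98) and median centring (-0.98), without rESC-RPC1 replicate 3 (-0.73) or without rESC-RPC2 replicate 1 (-1.06, adjusted p = 0.0532) or 2 (-0.85).

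In the ErbB family the receptor Egfr fell in both kinds of rESC-RPCs and the ligand Nrg1 was higher in both. Egfr, the EGF receptor of late retinal progenitors and Muller glia, had signals of 1750.3, 1494 and 1513 (P-RPC), 219.8, 523 and 204 (rESC-RPC1) and 135, 207 and 135 (rESC-RPC2). Its mean was 1586 ± 143 (SD, n = 3) for P-RPC, 316 ± 179.9 for rESC-RPC1 and 159 ± 41.6 for rESC-RPC2. The P-RPC arrays stood above all others, with log2 fold changes of -2.46 ± 0.32 (SE, adjusted p = 8.01e-05) and -3.35 ± 0.32 (SE, adjusted p = 8.4e-06). The rESC-RPC1 and rESC-RPC2 arrays overlapped, and a second probe set called Egfr lower in rESC-RPC2 than in rESC-RPC1 (adjusted p = 0.0324) at group means of 60.1 and 20.5. Both lay under the threshold, so no fold is given.

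The summed signals of retinal neuron, microglia, pigment cell and endothelial markers were also highest in P-RPC, though not those of every gene on these lists. The summed signal of 12 retinal neuron markers was 38457 to 41084 in P-RPC, 4027 to 8237 in rESC-RPC1 and 2406 to 2693 in rESC-RPC2, with 10, 1 and 2 of them detected on all 3 arrays. For 12 microglia markers it was 1898 to 2289, 225 to 376 and 252 to 367, with 6, 0 and 0 detected. For 8 pigment epithelium and melanocyte markers it was 8604 to 10548, 1959.8 to 6119 and 388 to 501, with 6, 3 and 1 detected. For 10 endothelial markers it was 6937 to 7346, 692 to 1390 and 363 to 448, with 1, 1 and 0 detected. Only 1 endothelial marker was tested, and it was called lower in both kinds of rESC-RPCs. Of the 10 tested retinal neuron markers, 9 were called lower in each kind of rESC-RPCs against P-RPC, and 1 was called higher in rESC-RPC2. All 6 tested microglia markers were called lower in both. Of the 6 tested pigment markers, 4 were lower and 2 higher in rESC-RPC1, and 5 were lower in rESC-RPC2. Rlbp1, a carrier protein of Muller glia, was at 3366 to 3513 in P-RPC and at most 218 in rESC-RPC1 and 5.33 in rESC-RPC2. The list it belongs to did not fall as a whole. Of its 10 tested astrocyte and Muller glia markers, 5 were called higher and 1 lower in rESC-RPC1 against P-RPC. In rESC-RPC2, 3 were higher and 4 lower. The part of these cell types in the fall of Egfr and of the other members that were highest in P-RPC was not tested.

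Erbb2, the co-receptor with no ligand of its own, had 147, 159.6 and 121 (P-RPC), 328, 208 and 261 (rESC-RPC1) and 204, 130.3 and 155 (rESC-RPC2). Its log2 fold change in rESC-RPC1 against P-RPC was 0.88 ± 0.22 (SE, adjusted p = 0.00617) and was not called, although the arrays did not overlap. Erbb3 and Erbb4, the receptors that bind neuregulins, did not reach the threshold on any array. Erbb3 was at 34.2 to 45.8 in P-RPC, 38.3 to 66.6 in rESC-RPC1 and 41.5 to 50.7 in rESC-RPC2, and Erbb4 was at 27.7 to 37.4 in rESC-RPC2, against 2.2 to 22 in P-RPC and 1 to 6.15 in rESC-RPC1.

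Nrg1, a neuregulin of neurons and of glial and cardiac development, was at 7.27, 29.7 and 4.94 (P-RPC), 48.5, 53.6 and 163 (rESC-RPC1) and 255, 199.8 and 208 (rESC-RPC2). The 3 groups did not overlap, but the threshold was reached on no P-RPC array, on 1 rESC-RPC1 array and on the 3 rESC-RPC2 arrays. In rESC-RPC2 it was at least 1.79-fold higher than in P-RPC (adjusted p = 0.00022). In rESC-RPC1 it was called (adjusted p = 0.00374) at a mean log2 signal under the threshold, so no fold is given. With values raised to the threshold the log2 fold changes were 0.14 and 0.84, and neither was called. Of its 8 probe sets the 2 others tested were also called higher in both kinds of rESC-RPCs. Like the probe set used, they passed the filter through rESC-RPC arrays alone, so their calls are no separate check. Neither exceeded 24.9 on any P-RPC array, and of the rESC-RPC1 arrays only replicate 3 was above the threshold, at 216 and 181. Nrg2 and Nrg4 did not exceed 105 on any array.

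**Figure D2:**
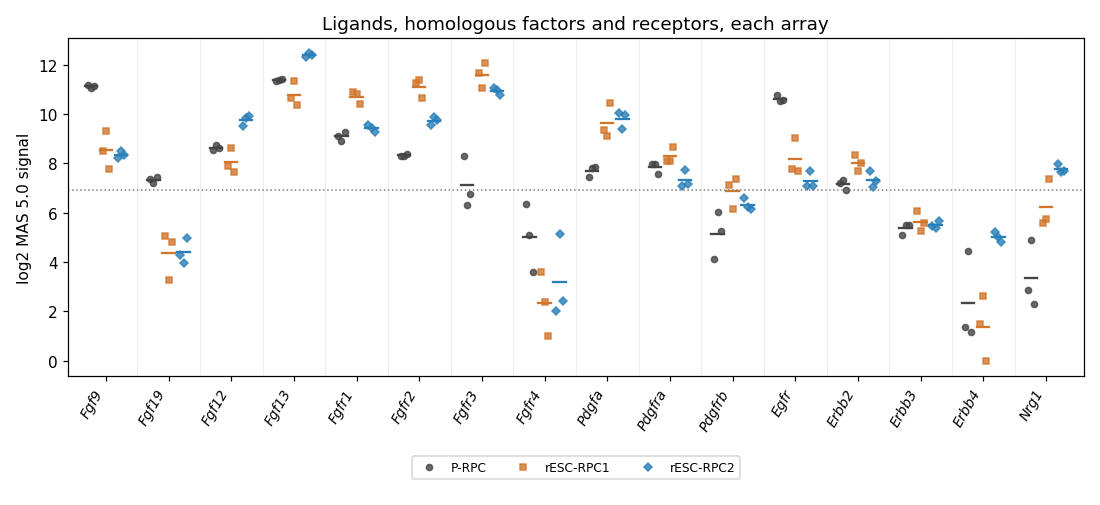
The log2 MAS 5.0 signal (vertical axis) of 16 ligands, homologous factors and receptors on each array, with 1 point per array, a bar at the mean of the 3 arrays and a dotted line at the detection threshold. Fgf9 and Egfr are highest in P-RPC, Fgfr1 and Fgfr2 in rESC-RPC1, and Fgf12 and Fgf13 in rESC-RPC2.

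The feedback genes did not move as 1 block. Spry1 rose in both kinds of rESC-RPCs, Etv5 fell in both, and Spry2, Spry4, Dusp5, Dusp6, Dusp7 and Etv4 were not called in any comparison. Spry1, a Sprouty inhibitor of receptor tyrosine kinase signaling, was at 147, 129.9 and 131 (P-RPC), 856, 1254 and 799 (rESC-RPC1) and 663, 556 and 604 (rESC-RPC2). The groups did not overlap, with log2 fold changes of 2.81 ± 0.17 (SE, adjusted p = 3.69e-07) in rESC-RPC1 and 2.16 ± 0.17 (SE, adjusted p = 1.9e-06) in rESC-RPC2 against P-RPC, and that of -0.65 ± 0.17 (SE, adjusted p = 0.00839) between the rESC-RPCs was under the fold of 2.

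Spry2, a Sprouty gene that FGF and EGF signaling induces, was at 1632, 1781 and 1749 (P-RPC), 1443, 1367 and 1189.7 (rESC-RPC1) and 1656, 1379 and 1238 (rESC-RPC2). Spry4 had 223, 265 and 238 (P-RPC), 296, 274 and 316 (rESC-RPC1) and 428, 286 and 301 (rESC-RPC2), giving a log2 fold change of 0.46 ± 0.17 (SE, adjusted p = 0.032) in rESC-RPC2 against P-RPC. Spry3, another Sprouty gene, was at 35.6, 64 and 56.5 (P-RPC), 47.1, 58.8 and 76.2 (rESC-RPC1) and 127, 208 and 221 (rESC-RPC2). Only the rESC-RPC2 arrays reached the threshold, and Spry3 was at least 1.47-fold higher there than in either other group (adjusted p = 0.000778 against P-RPC and adjusted p = 0.00285 against rESC-RPC1). It passed the filter through rESC-RPC2 alone, and with values raised to the threshold its log2 fold change of 0.56 was not called. Spred3, the only Spred gene measured here, was at 268, 219.8 and 246 (P-RPC), 353, 321 and 498 (rESC-RPC1) and 465, 625 and 459.9 (rESC-RPC2). It was called higher in rESC-RPC2 relative to P-RPC, giving a log2 fold change of 1.07 ± 0.19 (SE, adjusted p = 0.00056), which fell under 1 without P-RPC replicate 2 (0.99) or rESC-RPC2 replicate 2 (0.92).

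Etv5, an ETS factor of the PEA3 group and a classical target of FGF signaling, had 1294, 1443 and 1392 (P-RPC), 262, 315 and 479.6 (rESC-RPC1) and 699, 583 and 492 (rESC-RPC2). The 3 groups did not overlap, and its log2 fold changes were -2.01 ± 0.20 (SE, adjusted p = 1.49e-05) and -1.23 ± 0.20 (SE, adjusted p = 0.000401) against P-RPC. A second, dimmer probe set was not called in either comparison (adjusted p = 0.0323 and adjusted p = 0.0395), and no rESC-RPC array reached the threshold on it. Etv4, of the same group, was at 172, 159 and 173 (P-RPC), 80.6, 118 and 65.9 (rESC-RPC1) and 114, 141 and 115 (rESC-RPC2). All rESC-RPC arrays were under P-RPC, but Etv4 was not called in rESC-RPC1, where it was under the threshold and at least 1.37-fold lower (adjusted p = 0.00467), or in rESC-RPC2, where the log2 fold change was -0.45 ± 0.23 (SE, adjusted p = 0.118). Etv1, the third PEA3 factor and also known from photoreceptors and subsets of neurons, was at 1052, 1030.2 and 1016 (P-RPC), 1408, 1975 and 844 (rESC-RPC1) and 1773, 2096 and 2380.2 (rESC-RPC2). It went the other way, giving a log2 fold change of 1.00 ± 0.24 (SE, adjusted p = 0.00458) in rESC-RPC2. That call sits at the fold of 2 and was lost under quantile normalization (0.99) and without P-RPC replicate 3 (0.99), rESC-RPC2 replicate 2 (0.99) or rESC-RPC2 replicate 3 (0.90), and of the 3 other Etv1 probe sets tested, 1 was called. Of the ETS factors outside this group, Etv3 was not called, and Etv2 and Etv6 stayed under the threshold.

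The MAP kinase phosphatases that were called were higher in rESC-RPC2. Dusp1, an inducible nuclear phosphatase of ERK, JNK and p38, was at 729.6, 919 and 826 (P-RPC), 1040.0, 843 and 849.6 (rESC-RPC1) and 2347, 1661 and 1923 (rESC-RPC2). Its rESC-RPC2 arrays lay above all 6 others, with log2 fold changes of 1.25 ± 0.14 (SE, adjusted p = 3.16e-05) against P-RPC and 1.11 ± 0.14 (SE, adjusted p = 0.000146) against rESC-RPC1, the latter 0.98 and not called without rESC-RPC2 replicate 1. Dusp8, a phosphatase that prefers JNK and p38 and is known from brain, had 300.1, 362 and 311 (P-RPC), 287, 351 and 288 (rESC-RPC1) and 628, 804 and 661 (rESC-RPC2). Its log2 fold changes in rESC-RPC2 were 1.10 (adjusted p = 6.35e-05) and 1.18 (adjusted p = 8.06e-05), and the first was not called without rESC-RPC2 replicate 2 (0.99).

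Dusp6, the cytoplasmic ERK phosphatase used as a readout of FGF signaling, was at 1131, 984 and 1035 (P-RPC), 909, 694 and 1212 (rESC-RPC1) and 2146, 1342 and 1491 (rESC-RPC2). Its rESC-RPC2 arrays were above all others, yet the log2 fold changes of 0.63 ± 0.21 (SE, adjusted p = 0.0217) and 0.83 ± 0.21 (SE, adjusted p = 0.0078) were under 1. Of its 2 other probe sets, 1 was called higher in rESC-RPC2 than in rESC-RPC1 (1.11, adjusted p = 0.00133). Dusp7, its close relative, had 758, 801 and 812 (P-RPC), 1439, 1295 and 1576 (rESC-RPC1) and 1024, 1476 and 1296 (rESC-RPC2), giving a log2 fold change of 0.86 ± 0.13 (SE, adjusted p = 0.000272) in rESC-RPC1. Dusp5, a nuclear ERK phosphatase, was at 194, 207 and 173 (P-RPC), 172, 139.7 and 163 (rESC-RPC1) and 154, 112 and 174 (rESC-RPC2), and none of its adjusted p-values was under 0.05. Dusp2, Dusp4, Dusp9 and Dusp10 were not tested, and of these only Dusp2 reached the threshold, on rESC-RPC2 replicate 2. Dusp4, an ERK-induced nuclear phosphatase, was at 31.2 to 70.4 in P-RPC, 7.8 to 62.4 in rESC-RPC1 and 31.5 to 50.2 in rESC-RPC2.

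Among the atypical dual specificity phosphatases, small enzymes of which several act on substrates other than MAP kinases, 9 of 10 were tested. Of these, 2 were called in rESC-RPC2 against P-RPC (22.2%, against 23.8% of all genes) and 2 in rESC-RPC2 against rESC-RPC1 (22.2%, against 14.3%), shares over few genes that are read only as counts. Dusp3 (VHR), which acts on ERK and JNK, was at 910.1, 639 and 665 (P-RPC), 975, 1054 and 1629 (rESC-RPC1) and 1985, 1534 and 1483 (rESC-RPC2), giving a log2 fold change of 1.18 ± 0.21 (SE, adjusted p = 0.000578) in rESC-RPC2 against P-RPC. Dusp26, a phosphatase known from neural and neuroendocrine cells, was at 526, 525 and 419 (P-RPC), 218, 274 and 311 (rESC-RPC1) and 613, 514 and 584 (rESC-RPC2). Its rESC-RPC1 arrays lay under those of both other groups, giving a log2 fold change of 1.10 ± 0.15 (SE, adjusted p = 0.000237) between the rESC-RPCs, which fell under 1 without rESC-RPC1 replicate 1 (0.96).

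Dusp12, an atypical phosphatase with a zinc-binding end, was at 140.1, 133 and 116 (P-RPC), 105, 138 and 132 (rESC-RPC1) and 256, 269 and 251 (rESC-RPC2). Its rESC-RPC2 arrays were above all others, with log2 fold changes of 1.06 ± 0.17 (SE, adjusted p = 0.000517) against rESC-RPC1, lost without rESC-RPC1 replicate 1 (0.94), and 0.997 against P-RPC, just under the fold of 2. Dusp23, a small phosphatase of broad substrates, was at 377, 433 and 403 (P-RPC), 286, 169.5 and 218 (rESC-RPC1) and 215, 157 and 188 (rESC-RPC2), and was the one phosphatase called lower, giving a log2 fold change of -1.12 ± 0.20 (SE, adjusted p = 0.000573) in rESC-RPC2 against P-RPC. The used probe set of Dusp18 was not called, but both others tested were called higher in rESC-RPC1 relative to P-RPC (adjusted p = 0.000594 and adjusted p = 0.00207), and the latter was under the threshold on all P-RPC arrays. Dusp11, Dusp14, Dusp19 and Dusp22 were not called, and Dusp15 reached the threshold on P-RPC replicate 2 alone and was not tested.

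**Figure D3:**
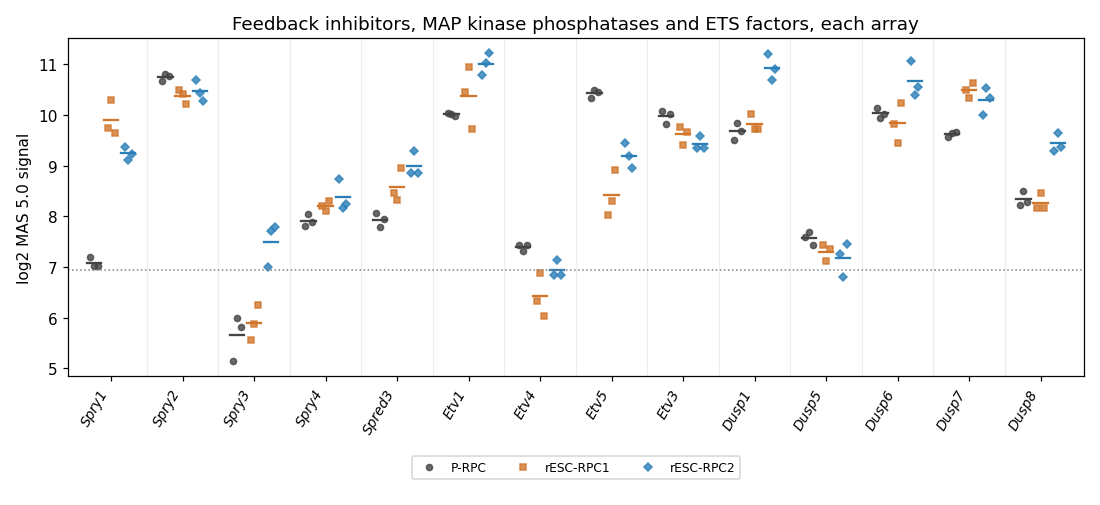
The log2 MAS 5.0 signal (vertical axis) of the 14 tested Sprouty, Spred, ETS and MAP kinase phosphatase genes on each array, with 1 point per array, a bar at the mean of the 3 arrays and a dotted line at the detection threshold. Spry1 is lowest in P-RPC, Etv5 is highest there, and Dusp1, Dusp8 and Spry3 are highest in rESC-RPC2.

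The rest of the ERK pathway was read from 82 further genes with a probe set, of which 63 were tested. Of these, 22 were called higher and 3 lower in rESC-RPC1 relative to P-RPC (39.7%, against 21.5% of all genes tested), 13 higher and 4 lower in rESC-RPC2 relative to P-RPC (27.0%, against 23.8%), and 1 higher and 8 lower in rESC-RPC2 than in rESC-RPC1 (14.3%, against 14.3%). These lists were drawn up with earlier results of the same arrays known.

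Of 17 tested ligands and regulators outside the cell or at its surface, 9 were higher and 1 lower in rESC-RPC1 relative to P-RPC (58.8%, against 21.5% of all genes), 5 were higher and 2 lower in rESC-RPC2 relative to P-RPC (41.2%, against 23.8%), and 2 were lower between the rESC-RPCs (11.8%, against 14.3%). Sulf2, an enzyme that trims the heparan sulfate on which FGFs dock, had 1018, 1079 and 1029.8 (P-RPC), 5359, 4305 and 5832 (rESC-RPC1) and 2479, 2039 and 2128 (rESC-RPC2). The groups did not overlap, with log2 fold changes of 2.30 ± 0.12 (SE, adjusted p = 1.36e-07) in rESC-RPC1 and -1.22 ± 0.12 (SE, adjusted p = 2.23e-05) between the rESC-RPCs. Flrt3, a membrane protein that binds FGF receptors, was at 554, 520.0 and 544 (P-RPC), 1718, 1104 and 1405 (rESC-RPC1) and 1640.0, 1499 and 1299 (rESC-RPC2), giving a log2 fold change of 1.45 ± 0.15 (SE, adjusted p = 1.57e-05) in rESC-RPC2 against P-RPC. Lrig3, of the Lrig family of ErbB regulators, was at 159.8, 191 and 184 (P-RPC), 289, 294 and 306 (rESC-RPC1) and 102, 55.8 and 67.2 (rESC-RPC2), and at least 2.42-fold lower in rESC-RPC2 than in rESC-RPC1 (adjusted p = 4.81e-05).

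The ligands of Egfr were singled out after their values were seen. Hbegf, the heparin-binding ligand, was at 39.1, 42 and 26.4 (P-RPC), 158, 105 and 240.1 (rESC-RPC1) and 232, 186 and 291 (rESC-RPC2), and all 6 rESC-RPC arrays were above P-RPC, where no array reached the threshold. It was higher by at least 1.29-fold in rESC-RPC1 (adjusted p = 0.000245) and 1.89-fold in rESC-RPC2 (adjusted p = 4.52e-05). Egf itself was at 273, 351 and 282 (P-RPC), 80.7, 104 and 54.7 (rESC-RPC1) and 71.8, 87 and 54.8 (rESC-RPC2), under the threshold on all 6 rESC-RPC arrays and at least 2.45-fold lower in each kind of rESC-RPCs (adjusted p = 0.00015 and adjusted p = 8.32e-05). Tgfa was at 173, 171 and 139 (P-RPC), 217, 207 and 467 (rESC-RPC1) and 309, 304 and 235 (rESC-RPC2) and was not called in any comparison. Errfi1, an inhibitor of Egfr that ERK signaling induces, was at 346, 384 and 379 (P-RPC), 1507, 786 and 1687 (rESC-RPC1) and 1427, 851 and 1293 (rESC-RPC2), with log2 fold changes of 1.77 ± 0.27 (SE, adjusted p = 0.000258) and 1.65 ± 0.27 (SE, adjusted p = 0.000368) against P-RPC. Egfr and Egf were both highest in P-RPC, where Hbegf and Errfi1 were lowest.

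Of 29 tested genes of intracellular transduction, such as Ras, Raf, MEK and adaptor genes, 6 were higher and 1 lower in rESC-RPC1 relative to P-RPC (24.1%, against 21.5% of all genes), 2 higher and 1 lower in rESC-RPC2 relative to P-RPC (10.3%, against 23.8%), and 1 higher and 4 lower between the rESC-RPCs (17.2%, against 14.3%). Grb10, an imprinted adaptor that dampens insulin and growth factor receptors, was at 5040.4, 5187 and 5555 (P-RPC), 246, 265 and 284 (rESC-RPC1) and 801, 860.3 and 609.8 (rESC-RPC2). The 3 groups did not overlap, with log2 fold changes of -4.31 ± 0.13 (SE, adjusted p = 5.76e-09) and -2.81 ± 0.13 (SE, adjusted p = 6.49e-08) against P-RPC and a 2.83-fold higher level in rESC-RPC2 than in rESC-RPC1 (adjusted p = 1.11e-05). Stat3, a factor downstream of cytokine and growth factor receptors and active in glia, was at 222, 171 and 143 (P-RPC), 1786, 1524 and 1749 (rESC-RPC1) and 853, 712 and 599 (rESC-RPC2), with log2 fold changes of 3.26 ± 0.17 (SE, adjusted p = 1.82e-07) and 2.02 ± 0.17 (SE, adjusted p = 4.37e-06).

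Shc1, the adaptor that joins activated receptors to Ras, was at 488, 353 and 350.1 (P-RPC), 2061, 1474 and 2168 (rESC-RPC1) and 274, 283 and 277 (rESC-RPC2). Its rESC-RPC1 arrays lay above all 6 others, with log2 fold changes of 2.26 ± 0.17 (SE, adjusted p = 1.82e-06) against P-RPC and -2.75 ± 0.17 (SE, adjusted p = 2.15e-06) for rESC-RPC2 against rESC-RPC1. Rras, a Ras relative of muscle and vessel cells, was at 262, 234 and 245 (P-RPC), 890.1, 659.6 and 879 (rESC-RPC1) and 353, 275 and 298 (rESC-RPC2), giving a log2 fold change of -1.39 for rESC-RPC2 against rESC-RPC1 (adjusted p = 4.1e-05). Pea15, an astrocyte protein that holds ERK in the cytoplasm, was at 2706, 2630.5 and 2745 (P-RPC), 6171, 5834 and 6474 (rESC-RPC1) and 4927, 4282 and 4335 (rESC-RPC2), with 1.19 ± 0.07 (SE, adjusted p = 5.01e-07) as its log2 fold change in rESC-RPC1 against P-RPC. Araf, a Raf kinase, was at 804, 903 and 705 (P-RPC), 1252, 1337 and 1274 (rESC-RPC1) and 1968, 2386 and 2138 (rESC-RPC2), highest in rESC-RPC2, where its log2 fold change was 1.43 ± 0.11 (SE, adjusted p = 1.79e-06) against P-RPC. As with Fgfr1 and Fgfr2, the signals of Shc1, Rras and Sulf2 were highest in rESC-RPC1, the group in which the summed fibroblast and glial markers were also highest. The part of those cells in these levels was not tested.

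Of 17 tested induced targets, 7 were higher and 1 lower in rESC-RPC1 relative to P-RPC (47.1%, against 21.5% of all genes), 6 were higher and 1 lower in rESC-RPC2 relative to P-RPC (41.2%, against 23.8%), and 2 were lower between the rESC-RPCs (11.8%, against 14.3%). Among the immediate early genes, Egr1, Egr2, Fos, Myc, Ier3 and Klf4 were higher in both kinds of rESC-RPCs than in P-RPC. They were also singled out after their values were seen. On the same list, Jun, Jund, Ier2, Ier5 and Mcl1 were not called against P-RPC. Their log2 fold changes ran from -0.80 to 0.51 in rESC-RPC1 and from -0.61 to -0.07 in rESC-RPC2. Egr3, Fosb, Fosl1, Fosl2 and Junb were not tested. Egr1 was at 172, 201 and 207 (P-RPC), 2233, 1294 and 1564 (rESC-RPC1) and 1608, 469 and 487 (rESC-RPC2), with rESC-RPC2 replicate 1 well above the other arrays of its group. The same array was the highest of rESC-RPC2 for Egr2, Fos, Myc, Ier3 and Klf4. In rESC-RPC2, Fos was at 2374, 886 and 662 and Ier3 at 1316, 679 and 816. For Egr1, Fos, Myc and Ier3 the log2 fold changes ran from 1.33 to 3.18 in rESC-RPC1 and from 1.52 to 2.76 in rESC-RPC2. Egr2 and Klf4 were under the threshold in P-RPC, and Klf4, a factor also known from pluripotent cells and radial glia, was at 102, 93.8 and 76.6 (P-RPC), 1116, 528 and 905 (rESC-RPC1) and 684, 462 and 455 (rESC-RPC2), at least 6.62-fold higher in rESC-RPC1 (adjusted p = 3.9e-06) and at least 4.27-fold in rESC-RPC2 (adjusted p = 1.62e-05).

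Ccnd1, cyclin D1, a target of ERK signaling in the cell cycle that is also a retinal progenitor marker, was at 16395, 17751 and 17958 (P-RPC), 2579, 1907 and 2914 (rESC-RPC1) and 2574, 2253 and 2517 (rESC-RPC2). It was called lower in both kinds of rESC-RPCs, with log2 fold changes of -2.84 ± 0.13 (SE, adjusted p = 8.11e-08) and -2.83 ± 0.13 (SE, adjusted p = 7.9e-08).

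**Figure D4:**
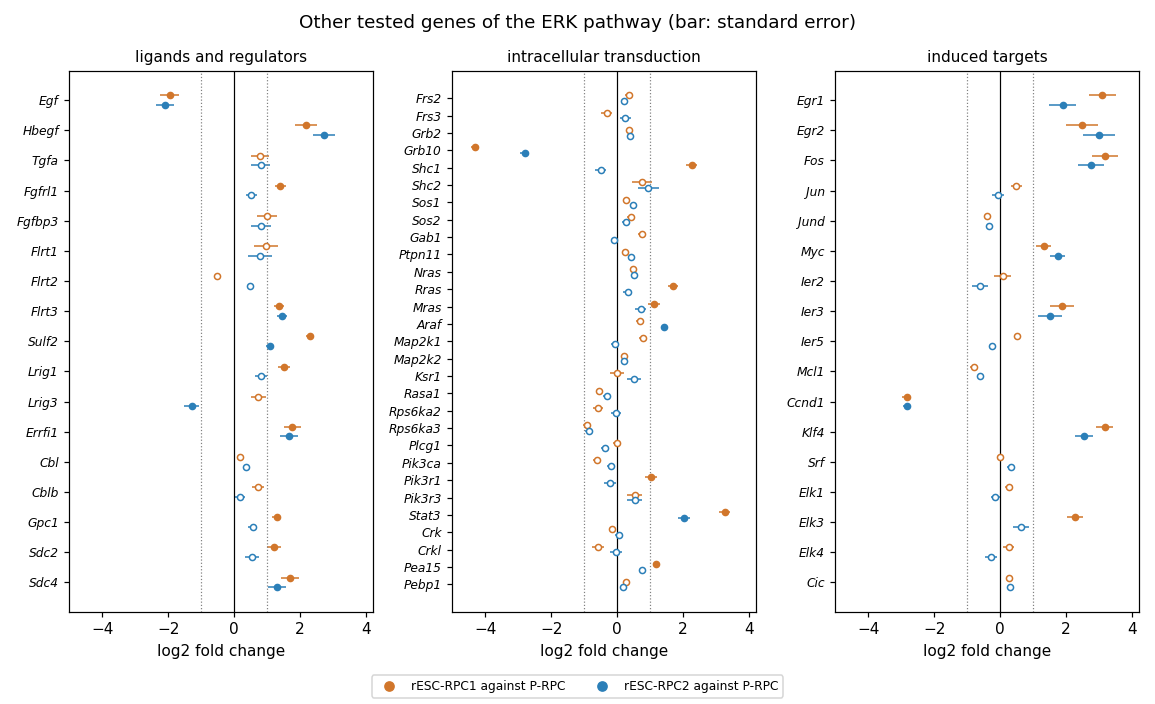
The log2 fold change (horizontal axes, bars giving standard errors) of the 63 tested pathway genes outside the families, in 3 panels for ligands and regulators, intracellular transduction and induced targets, for rESC-RPC1 (orange) and rESC-RPC2 (blue) against P-RPC. Filled points are called and open points are not, with dotted lines at a fold of 2. Grb10 and Ccnd1 lie farthest to the left, and Egr1, Fos, Klf4 and Stat3 are among the points farthest to the right.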

How the data were processed

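Total RNA of 9 rat samples was hybridized to Affymetrix arrays, and 1 MAS 5.0 signal per probe set was deposited by the authors, a linear intensity. The version of MAS 5.0 is not given in the sources used here. The mean signal after trimming 2% from each end was 500.2 on each array. Scaling to a common mean means that a signal is relative to the total of its array. Of 31099 probe sets, 57 controls were left out, and 20826 of the rest carry 1 gene symbol, 436 several and 9780 none. The latter 2 kinds were left out.

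Signals under 1 were set to 1, and log2 of the deposited signals was tested with limma 3.58.1 in R 4.3.3 (lmFit, eBayes with a variance trend, 1 mean per group, no covariate). A gene was tested when at least 3 of 9 arrays reached the 50th percentile of all values (123), and called with a change of 1 or more on the log2 scale and a p below 0.05 after Benjamini-Hochberg adjustment over 9953 genes. Folds against a group with no array at the threshold are lower bounds computed from the threshold. SD is over the 3 arrays of a group, and SE is limma's standard error of a log2 fold change. No batch or scan date is given.

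The members and lists were chosen with earlier results of these data known. Named with values were all family receptors, all called members, the classical ERK feedback genes and up to 6 called pathway genes of smallest adjusted p per comparison. Replicate numbers were checked for pairing (r of deviations from -0.036 to 0.272, over 0.1 in 1 of 9 pairs) and treated as unpaired. The procedure was tested on simulated data. Start regions came from RefSeq (GRCr8) and matched 56 of the 70 members by gene identifier.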

Additional observations from a re-analysis of the deposited data

How the results depend on the processing

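No called log2 fold change of a member changed direction under quantile normalization, median centring, other filters, floors, probe set rules, variance models or tests, or on leaving out an array. Of 39 such calls, 24 were kept under all of these and 15 were lost under at least 1, as given beside the genes. The calls for Dusp12 and Pdgfrl between the rESC-RPCs and for Nrg1 in rESC-RPC1 were also lost under further settings. With every probe set tested, a call was followed on its own probe set, so another probe set of the gene could not lose it. The calls kept include those of Etv5 against P-RPC and of Fgf12 in rESC-RPC2 against P-RPC, which a second probe set did not give. The methods' t-test at an unadjusted p under 0.05 and a fold of 2 called 11, 18 and 10 members and 2095, 2346 and 1337 of all genes. With Benjamini-Hochberg adjustment it called 10, 18 and 9 members and 2006, 2306 and 1137 of all genes. After that adjustment the call for Nrg1 in rESC-RPC1 was lost (adjusted p = 0.0737).

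Counting every probe set, 18 probe sets of members were called in rESC-RPC1 against P-RPC in place of 11 genes. Over all genes, 2768 probe sets were called there in place of 2144 genes. With no minimum fold, 24 members were called there and 18 in rESC-RPC2 against rESC-RPC1, with 5984, 6296 and 4804 of all genes in the 3 comparisons. Under the block on replicate number, 11, 18 and 10 members and 2148, 2370 and 1429 of all genes were called, beside 11, 18 and 10 and 2144, 2368 and 1426 without it. On leaving out each array in turn, 10 to 13, 14 to 18 and 7 to 13 members and 1859 to 2165, 2105 to 2343 and 1230 to 1456 of all genes were called. Without rESC-RPC1 replicate 1, 5 members in place of 3 were called lower in rESC-RPC2 than in rESC-RPC1. Over all genes, 1230 in place of 1426 were then called in either direction. With no filter on low values 12 members in place of 7 were called higher against P-RPC in rESC-RPC1, with more genes tested. Between the rESC-RPCs 6 in place of 3 were called lower. In either direction, 2696 in place of 2144 and 1749 in place of 1426 of all genes were called in these comparisons. The causes were not tested.

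With 3 arrays a group an exact permutation test of a single gene cannot go below p = 0.1, so the calls rest on a spread shared across genes. Signals under the threshold limit the folds of Fgf19, Fgfr3, Nrg1, Spry3, Pdgfrl and Etv4 and leave 33 members untested.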
